A study of Mus musculus with 4 samples.

Results

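Guanylate-binding proteins (GBPs) and immunity-related GTPases (IRGs) were followed in macrophages of the mouse colon through 10 genes, the GBP genes Gbp2, Gbp3, Gbp5, Gbp7 and Gbp9 and the IRG genes Igtp, Irgm1, Iigp1, Ifi47 and Tgtp2. They were chosen by family, with earlier results of these data known, and are not all genes of the families. All 10 were found by Ensembl identifier among the 12596 genes of the table. Wild-type male C57/Bl6N mice had received diesel exhaust particles (DEP, 12 µg in 200 µL of PBS) or PBS alone by gavage on 5 days per week for about 6 months. Cells of the colonic lamina propria that carried CD11b together with Ly6C or CD64 were sorted, and each of 2 DEP mice (14 and 15) and 2 PBS mice (2 and 3) was loaded into its own well of a droplet assay. In this assay each captured RNA molecule is counted by a unique molecular identifier (UMI). A difference between wells and a difference between mice cannot be told apart.

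Both families are large GTPases that cells make in response to interferons, above all interferon-γ, which acts through its receptor, the kinases JAK1 and JAK2 and factors such as IRF1. GBPs gather on the vacuoles and surfaces of bacteria and parasites, open them to the cytosol and help inflammasomes to sense their contents. Among the IRGs, Irgm1 and Igtp (also called Irgm3) belong to the regulatory GMS class, which protects the membranes of the cell itself. Tgtp2 (Irgb6), Iigp1 (Irga6) and Ifi47 (Irgd) belong to the effector GKS class, which coats and disrupts vacuoles.

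Gbp2, Gbp3, Gbp5 and Gbp7 lie in 1 gene cluster at chr3:142493978-142638008 of the GRCm38 build, and Gbp9 lies at chr5:105077630-105139539. Irgm1, Tgtp2 and Ifi47 lie within chr11:48861968-49096974 and Igtp at chr11:58199556-58207591, while Iigp1 lies apart from both clusters. The annotated model of Gbp9 overlaps those of Gbp4 and Gbp8 on the same strand, and that of Igtp overlaps Irgm2. Tgtp2 has a near-identical neighbour, Tgtp1, so that reads of these genes and of other close GBP paralogs may have been divided or lost in counting.

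The promoters of the members are shown because the members shared a direction in the comparisons that follow. RefSeq promoter windows on GRCm38.p6, from 250 bases before to 50 after the annotated start, were at hand for 8 members (all except Gbp9 and Iigp1), with 2 starts for Gbp3. A pair of letter patterns was searched on both strands, the gamma-activated site (GAS) of interferon-γ-responsive genes as TTCNNNGAA and the interferon-stimulated response element (ISRE) bound by IRF factors as GAAANNGAAA. The stretches around the matches of 6 members read as follows (the matches of Gbp5, 2 GAS and 1 ISRE, spread over 214 bases and are not printed), 5′ to 3′ on the strand of the gene, with the matched letters in capitals.
Gbp2 (chr3:142620597-142620620, plus strand): cttttagTTTCACTTTCactgtct
Gbp3 (chr3:142559992-142560021, plus strand): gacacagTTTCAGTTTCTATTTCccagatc
Gbp7 (chr3:142530223-142530299, plus strand): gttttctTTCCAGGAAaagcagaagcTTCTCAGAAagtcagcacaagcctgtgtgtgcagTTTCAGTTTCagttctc
Igtp (chr11:58199504-58199538, plus strand): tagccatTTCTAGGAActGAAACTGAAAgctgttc
Tgtp2 (chr11:49064266-49064300, minus strand): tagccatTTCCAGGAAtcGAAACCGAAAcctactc
Irgm1 (chr11:48871428-48871457, minus strand): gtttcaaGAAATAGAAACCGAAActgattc

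An ISRE pattern was present in 7 of the 8 members with a window, while 3.99% of the 27025 genes in the promoter table have one. A GAS pattern was present in 4 of the 8 (Gbp5, Gbp7, Igtp and Tgtp2), against 9.55% of all genes. Both patterns together were present in those same 4 members and in 0.540% of all genes. Igtp and Tgtp2 hold the GAS and ISRE patterns next to each other without overlap, and the capitals of Gbp3 and Irgm1 are 2 overlapping ISRE matches each. Neither pattern was found in the window of Ifi47. The Gbp2 and Irgm1 stretches reach into the longest GENCODE models of those genes, whose annotated starts lie further upstream than the RefSeq starts.

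The table held 943 cells, of which 45 carried 3 or more markers of B or plasma cells, T cells, natural killer or innate lymphoid cells, epithelium or stroma and were left out. The retained 898 cells (180 and 314 of DEP mice 14 and 15, 190 and 214 of PBS mice 2 and 3) gave libraries of 705502 to 1242848 UMIs. All 11 macrophage and monocyte markers were detected, and no pair of mice matched within sampling noise. A single barcode was shared between mice. Plac8-high cells, with 2 or more UMIs of the monocyte-associated gene Plac8, numbered 49 and 72 upon DEP and 35 and 33 upon PBS (libraries of 119711 to 242722 UMIs). Plac8-high cells were thus 27.2% and 22.9% of the retained cells of the DEP mice and 18.4% and 15.4% of those of the PBS mice. C1q-high cells, in which the complement genes C1qa, C1qb and C1qc of resident macrophages made up at least 0.5% of UMIs, numbered 147 and 245 upon DEP and 170 and 185 upon PBS. In all, 55 cells belonged to both classes and 17 to neither.

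In all retained cells, the summed members stood at 480 and 511 CPM in DEP mice 14 and 15 and at 337 and 214 CPM in PBS mice 2 and 3 (UMIs scaled to library size, with TMM factors unless stated). The means were 496 ± 21.7 CPM upon DEP and 276 ± 87.3 CPM upon PBS (SD, n = 2 each), a ratio of 1.80. Both DEP mice exceeded both PBS mice, and the PBS mice lay further apart than the DEP mice. In a sum over cells, more cells with a transcript and more transcript per cell cannot be told apart.

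Among the effector IRGs, Ifi47 stood at 75.6 and 71.3 CPM upon DEP and at 41.8 and 20.2 CPM upon PBS over all retained cells, a log2 fold change of 1.33 ± 0.29 (SE). Its unadjusted p was 0.000673 and its adjusted p 0.515 in edgeR's quasi-likelihood test with Benjamini-Hochberg adjustment over 5601 genes. Tgtp2 stood at 50.1 and 43.3 CPM upon DEP and at 31.7 and 11.4 CPM upon PBS, with a log2 fold change of 1.24 ± 0.37 (adjusted p = 0.743). The groups did not overlap for either gene, and neither passed the adjusted threshold of 0.05. Iigp1 was counted 18 and 12 times upon DEP and 4 and 2 times upon PBS, and was below the filter on low counts. Pooled over mice, this was a ratio of 4.33 with an exact 95% interval of 1.77 to 12.7, which covers counting error only.

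Of the regulatory IRGs, Igtp stood at 33.4 and 40.1 CPM upon DEP and at 30.3 and 14.9 CPM upon PBS (log2 fold change 0.81 ± 0.34, adjusted p = 0.743). Irgm1 stood at 24.5 and 20.8 CPM upon DEP and at 15.9 and 17.5 CPM upon PBS (log2 fold change 0.41 ± 0.32, adjusted p = 0.867). For both genes the lower DEP mouse was close to the higher PBS mouse, without overlap.

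Among the GBPs, Gbp2 stood at 70.1 and 107 CPM upon DEP and at 56.2 and 24.6 CPM upon PBS, with a log2 fold change of 1.25 ± 0.33 (adjusted p = 0.722). Gbp3, the member with the most UMIs behind it, stood at 140 and 124 CPM upon DEP and at 102 and 74.5 CPM upon PBS (log2 fold change 0.60 ± 0.19, adjusted p = 0.743). Gbp9 stood at 28.9 and 24.8 CPM upon DEP and at 15.9 and 12.3 CPM upon PBS (log2 fold change 0.95 ± 0.33, adjusted p = 0.743). The groups of these 3 genes did not overlap. Gbp7 was an exception, at 28.9 and 55.3 CPM upon DEP and 23.1 and 30.7 CPM upon PBS, where DEP mouse 14 lay below PBS mouse 3 (log2 fold change 0.65 ± 0.33, adjusted p = 0.814). Gbp5, which acts with caspases in inflammasome assembly, was counted 8 and 19 times upon DEP and 10 and 7 times upon PBS, and the groups overlapped.

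Of the 8 members that passed the filter over all retained cells, 0 were called at an adjusted p under 0.05, while 0.0179% of the genes tested (1 gene, Plac8) were called. The fitted change was positive in 8 of 8 (48.4% of the genes tested), and 6 had an unadjusted p under 0.05 with a higher level upon DEP (3.25%). In 7 of 8 both DEP mice exceeded both PBS mice, as in 18.2% of the genes tested. The median log2 fold change of the 8 was 0.88, and that of all genes tested was -0.01. DESeq2 called 0 of the 8 as well. Leaving out PBS mouse 2, the higher PBS mouse for most members, gave calls for Gbp2, Ifi47 and Tgtp2, and so did a fit without the filter on low counts.

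**Figure D1:**
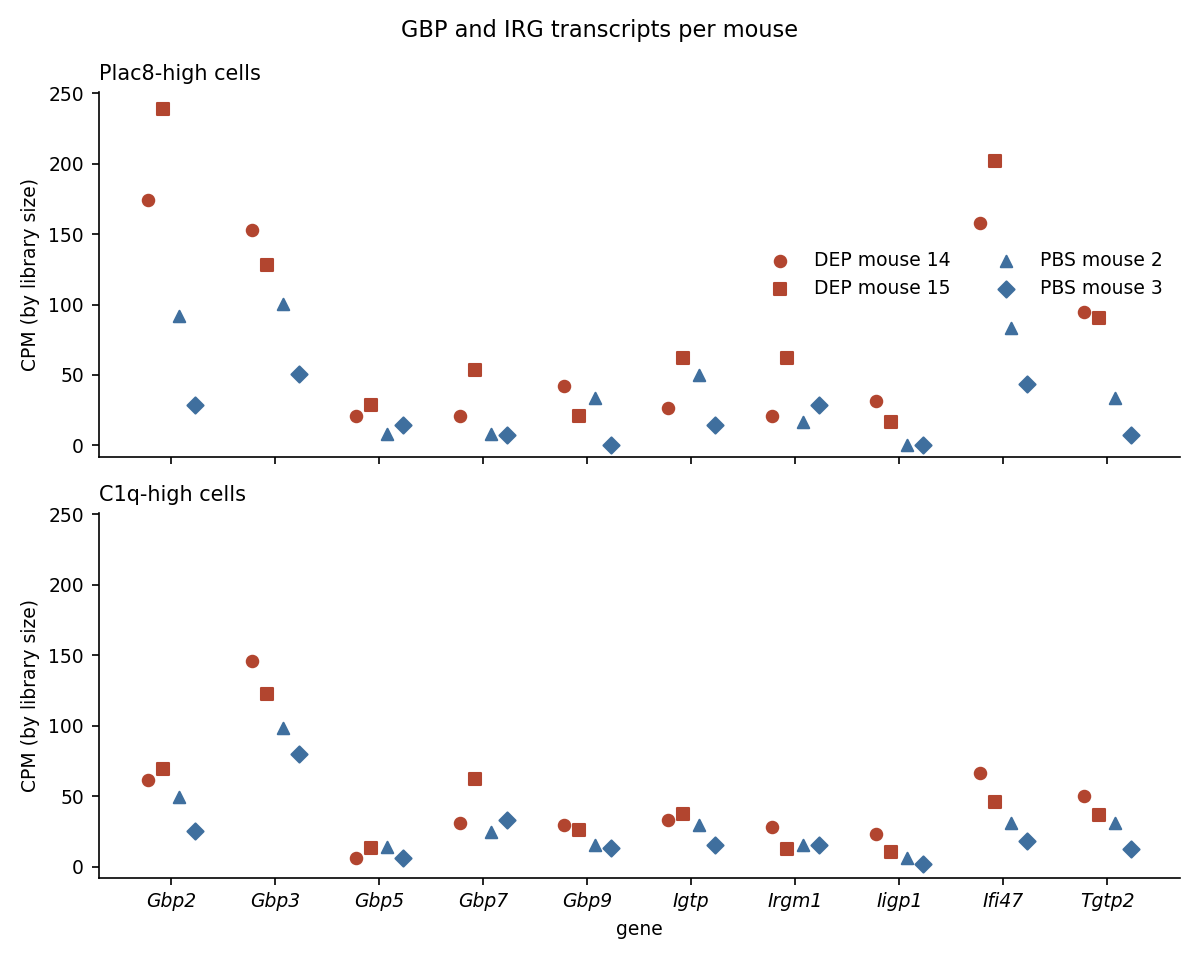
Level of each member in CPM (by library size, without TMM factors) in Plac8-high cells (upper panel) and C1q-high cells (lower panel), 1 point per mouse, with DEP mice in red and PBS mice in blue. In Plac8-high cells Gbp2 sits at 174 and 239 upon DEP and at 91.9 and 28.9 upon PBS, whereas Igtp, Irgm1 and Gbp9 overlap between the groups.

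In Plac8-high cells the summed members reached 740 and 887 CPM upon DEP and 439 and 193 CPM upon PBS, with means of 814 ± 104 and 316 ± 174 (SD, n = 2 each) and a ratio of 2.57. With all deposited cells kept, the sums were 634 and 832 CPM upon DEP and 546 and 225 CPM upon PBS. The fitted change of Gbp2 was then smaller than the one that follows. Gbp2 stood at 173 and 235 CPM upon DEP and at 94.7 and 28.6 CPM upon PBS (log2 fold change 1.79 ± 0.43, adjusted p = 0.285 by edgeR over 5056 genes). Ifi47 stood at 158 and 199 CPM upon DEP and at 86.1 and 42.9 CPM upon PBS (log2 fold change 1.5 ± 0.40, adjusted p = 0.383). For both genes each DEP mouse lay above each PBS mouse. Tgtp2 stood at 94.5 and 89.1 CPM upon DEP and at 34.5 and 7.15 CPM upon PBS, on 18, 22, 4 and 1 UMIs (log2 fold change 2.18 ± 0.62, adjusted p = 0.496). Iigp1 had 6 and 4 UMIs upon DEP and 0 and 0 upon PBS. With the PBS mice together set to a floor of 3 counts this is 1.99-fold higher, and the exact 95% counting interval starts at 1.34. Of these UMIs 9 lay in cells that were also C1q-high, and 4 lay in 1 cell of DEP mouse 14.

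The other members rested on few molecules in these cells. Gbp3 stood at 152 and 126 CPM upon DEP and at 103 and 50.03 CPM upon PBS (log2 fold change 0.88 ± 0.41, adjusted p = 0.771). Gbp7 had 4 and 13 UMIs upon DEP and 1 and 1 upon PBS, a pooled ratio of 5.07 with an exact 95% counting interval of 1.20 to 45.3. Gbp5 had 4 and 7 UMIs upon DEP and 1 and 2 upon PBS, a pooled ratio of 2.19 with an interval of 0.578 to 12.2. Gbp9, Igtp and Irgm1 overlapped between the groups, with log2 fold changes of 0.90 ± 0.94, 0.51 ± 0.69 and 0.85 ± 0.72. The directions of these 3 turned in at least 1 of the fits that left out a mouse.

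Of the 9 members tested in Plac8-high cells, 0 were called, as were 0 of all 5056 genes (0% called, 315 genes at an unadjusted p under 0.05, 0 genes called by DESeq2). All 9 fitted changes were positive (50.9% of the genes tested), 5 of them at an unadjusted p under 0.05 (3.24% for higher levels upon DEP). The filter asked for a UMI in 5% of the cells of both groups together. Gbp7, 1 of the 5, had one in 8.16% and 9.72% of the cells upon DEP but in 2.86% and 3.03% upon PBS. It passed through the DEP mice, so its place in these counts is no support. Gbp5 in PBS mouse 2 (2.86%) and Gbp9 in PBS mouse 3 (0%) were under 5% too. Both DEP mice exceeded both PBS mice in 6 of the 9 (18.9%). The median log2 fold change was 1.05 for the 9 and 0.01 for all genes tested. Gbp2 was called with the likelihood ratio test, without the gene filter and without DEP mouse 14, and Gbp2, Ifi47 and Tgtp2 were called without PBS mouse 2.

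In C1q-high cells the summed members stood at 468 and 440 CPM upon DEP and at 317 and 219 CPM upon PBS, with means of 454 ± 19.6 and 268 ± 68.7 (SD, n = 2 each) and a ratio of 1.69. Ifi47 stood at 65.6 and 46.4 CPM upon DEP and at 31.0 and 18.2 CPM upon PBS (log2 fold change 1.23 ± 0.32, adjusted p = 0.714 by edgeR over 5704 genes). Tgtp2 stood at 49.2 and 36.8 CPM upon DEP and at 31.0 and 12.5 CPM upon PBS (log2 fold change 1.09 ± 0.37, adjusted p = 0.816). These were again the IRGs with the largest fitted changes among those tested, and again both DEP mice exceeded both PBS mice. Iigp1 had 18 and 11 UMIs upon DEP and 4 and 2 upon PBS, a pooled ratio of 4.47 with an exact 95% counting interval of 1.82 to 13.2.

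Gbp2 stood at 60.5 and 69.7 CPM upon DEP and at 49.7 and 24.9 CPM upon PBS in C1q-high cells, with a log2 fold change of 0.89 ± 0.30 (adjusted p = 0.816). Gbp3 stood at 144 and 124 CPM upon DEP and at 99.4 and 79.5 CPM upon PBS (log2 fold change 0.59 ± 0.19, adjusted p = 0.816). Gbp9 stood at 29.0 and 26.1 CPM upon DEP and at 15.5 and 13.4 CPM upon PBS (log2 fold change 0.94 ± 0.35, adjusted p = 0.816). None of these 3 groups overlapped, and neither did that of Igtp (log2 fold change 0.75 ± 0.34). Gbp7 (log2 fold change 0.70 ± 0.34) and Irgm1 (0.33 ± 0.43) did overlap, and Irgm1 turned to -0.29 without DEP mouse 14.

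Of the 8 members tested in C1q-high cells, 0 were called, and so were 0 of the 5704 genes (0% called, 337 at an unadjusted p under 0.05, 0 called by DESeq2). The fitted changes were positive in 8 of 8 (49.5% of the genes tested), with an unadjusted p under 0.05 in 6 (3.14%) and no overlap in 6 (17.8%). The median log2 fold change was 0.82 for the 8 and -0.00 for all genes tested. Ifi47 was called in the fit without the gene filter.

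**Figure D2:**
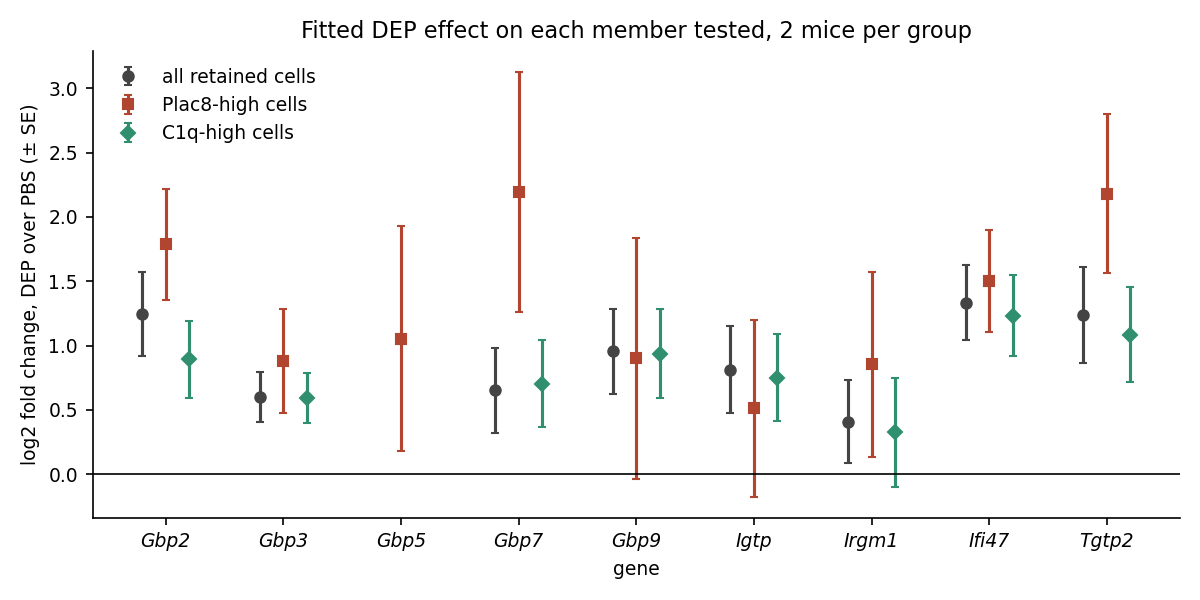
Log2 fold change of DEP over PBS with its standard error for each member that passed the filter (edgeR, 2 mice per group), in all retained cells (grey), Plac8-high cells (red) and C1q-high cells (green). All points lie above 0, and the error bars are longest in Plac8-high cells, for example 2.20 ± 0.93 for Gbp7.

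In the 18 and 10 cells of DEP mice 14 and 15 that were Plac8-high and C1q-high at once, the summed members stood at 947 and 1029 CPM by library size. In the 19 and 8 such cells of PBS mice 2 and 3 they stood at 301 and 301. In cells that were Plac8-high only, the values were 572 and 858 upon DEP and 600 and 135 upon PBS, so that PBS mouse 2 lay above DEP mouse 14 and the groups overlapped. In cells that were C1q-high only they were 416 and 398 upon DEP and 315 and 217 upon PBS, without overlap.

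A few cells carried many of the molecules. In Plac8-high cells the cell with the most member UMIs held 37 of 141 in DEP mouse 14, 31 of 219 in DEP mouse 15, 9 of 51 in PBS mouse 2 and 5 of 27 in PBS mouse 3. The cells with 37 and 31 UMIs were both Plac8-high and C1q-high, and there they made up 37 of 82 and 31 of 65 member UMIs. Without the top cell of each mouse, cells of both classes stood at 561 and 679 CPM by library size upon DEP and at 256 and 213 CPM upon PBS. Those that were Plac8-high only then stood at 505 and 723 CPM upon DEP and at 454 and 94.3 CPM upon PBS, and no longer overlapped. There the top cell had held 15.3% and 16.9% of the member UMIs upon DEP and 30% and 33.3% upon PBS. Its removal thus lowered the PBS mice by a larger share, and the lost overlap is no sign of a separation. For all Plac8-high cells the summed members without the top cells were 565 and 801 CPM upon DEP and 373 and 161 CPM upon PBS, still without overlap, and the log2 fold change of Ifi47 was 1.76 ± 0.43 and that of Gbp2 1.61 ± 0.52.

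**Figure D3:**
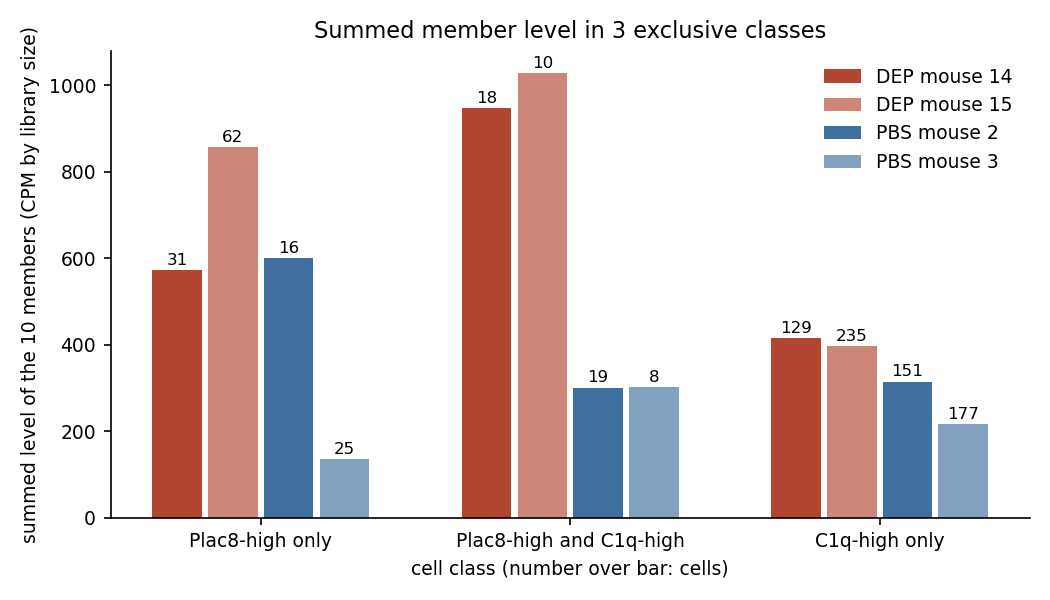
Summed level of the 10 members in CPM by library size in 3 exclusive cell classes, 1 bar per mouse with the number of its cells on top (DEP red, PBS blue, no error bars since each bar is 1 mouse). Cells of both classes separate the groups (947 and 1029 against 301 and 301, with 37 of 82 and 31 of 65 UMIs of the DEP mice in 1 cell each), whereas among cells that are Plac8-high only PBS mouse 2 (600) exceeds DEP mouse 14 (572).

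The share of cells with at least 1 UMI of any member was compared after thinning each cell to 1000 UMIs, so that depth did not differ between cells. It was 31.7% (57 of 180 cells, exact 95% binomial interval 24.9% to 39.0%) and 33.1% (104 of 314, 27.9% to 38.6%) in DEP mice 14 and 15. It was 28.4% (54 of 190, 22.1% to 35.4%) and 15.4% (33 of 214, 10.9% to 20.97%) in PBS mice 2 and 3. The difference was 10.5 percentage points (exact two-sided permutation p = 0.333, the smallest that 2 against 2 mice allow), and it was 3.97 points without PBS mouse 3.

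In Plac8-high cells the share was 34.7% and 40.3% upon DEP and 20% and 15.2% upon PBS, a difference of 19.9 points (exact permutation p = 0.333). In C1q-high cells it was 31.3% and 30.2% upon DEP and 30% and 15.7% upon PBS, a difference of 7.91 points that was 0.748 points without PBS mouse 3. In C1q-high cells PBS mouse 2 was thus close to the DEP mice in the share of cells with a member, although its summed level was lower. Without thinning, the shares over all retained cells were 73.3% and 63.7% upon DEP and 51.6% and 58.9% upon PBS, at median depths of 2778 to 4647 UMIs per cell. No cell type of the table is known to lack these genes; among the 30 B or plasma cell-like cells left out, at a median of 5109 UMIs, 23.3% had a member UMI after thinning.

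Cells with UMIs of 3 or more different members after thinning were 3.89% and 3.18% of the cells of the DEP mice and 0% of those of both PBS mice. In Plac8-high cells they were 10.2% and 8.33% upon DEP and again 0% of the 35 and 33 cells upon PBS. A floor of 3 cells is 8.57% and 9.09% of those PBS cells, so the 0% rests on too few cells to separate the groups. Cells with 2 or more members were 7.78% and 7.01% upon DEP and 3.68% and 1.87% upon PBS over all retained cells. Among Plac8-high cells they numbered 8 and 9 upon DEP and 1 and 1 upon PBS. Within the 898 thinned cells the median Pearson r over the 45 pairs of members was 0.047, centred within mice. The members were found in 5 (Iigp1) to 101 (Gbp3) of these cells. Counts this sparse hold r low, so how closely the members are linked cannot be told from it. The highest r was 0.32, between Gbp2 and Ifi47, which were found together in 13 cells while 39 and 49 cells had the one or the other.

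Plac8-high and C1q-high cells come from the same wells, which allows the classes to be compared within each mouse. For this the cells of 1 class only were used, with the mouse as a block in edgeR (8 libraries of 49967 to 988060 UMIs). In this comparison Plac8-high and C1q-high cells stand for cells of that class only. Of 5557 genes tested, 20.4% differed between the classes (8.64% higher in Plac8-high cells and 11.7% lower). Of the 8 members tested, 3 did, 2 of them higher in Plac8-high cells and 1 lower.

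Ifi47 was higher in Plac8-high cells, at 143, 206, 149 and 41.4 CPM in mice 14, 15, 2 and 3 against 60.2, 43.0, 37.0 and 18.8 CPM in their C1q-high cells (log2 fold change 1.78 ± 0.28, adjusted p = 1.91e-07). It was higher in 4 of 4 mice. Gbp2 was at 134, 233, 116 and 10.3 CPM in Plac8-high cells against 47.5, 65.6, 54.5 and 25.5 CPM in C1q-high cells (log2 fold change 1.40 ± 0.27, adjusted p = 2.46e-05). It was higher in 3 of 4 mice and lower in PBS mouse 3, where a single UMI was counted in Plac8-high cells.

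Gbp7 was lower in Plac8-high cells, at 17.8, 15.9, 0 and 0 CPM against 34.9, 62.2, 29.2 and 36.5 CPM in C1q-high cells (log2 fold change -2.05 ± 0.58, adjusted p = 0.00475). It was lower in 4 of 4 mice, but on only 2, 3, 0 and 0 UMIs in Plac8-high cells against 22, 55, 15 and 33 in C1q-high cells. Gbp3, Gbp9, Igtp, Irgm1 and Tgtp2 were not called, with log2 fold changes of -0.45 ± 0.26, -0.48 ± 0.59, 0.00 ± 0.44, 0.97 ± 0.53 and 0.41 ± 0.42. The median over all genes tested was -0.11. Ifi47 alone was called by DESeq2 and without DEP mouse 15. Within the DEP mice alone Gbp2 and Ifi47 were called, and within the PBS mice 0 members were (adjusted threshold in edgeR, 555 genes called there).

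**Figure D4:**
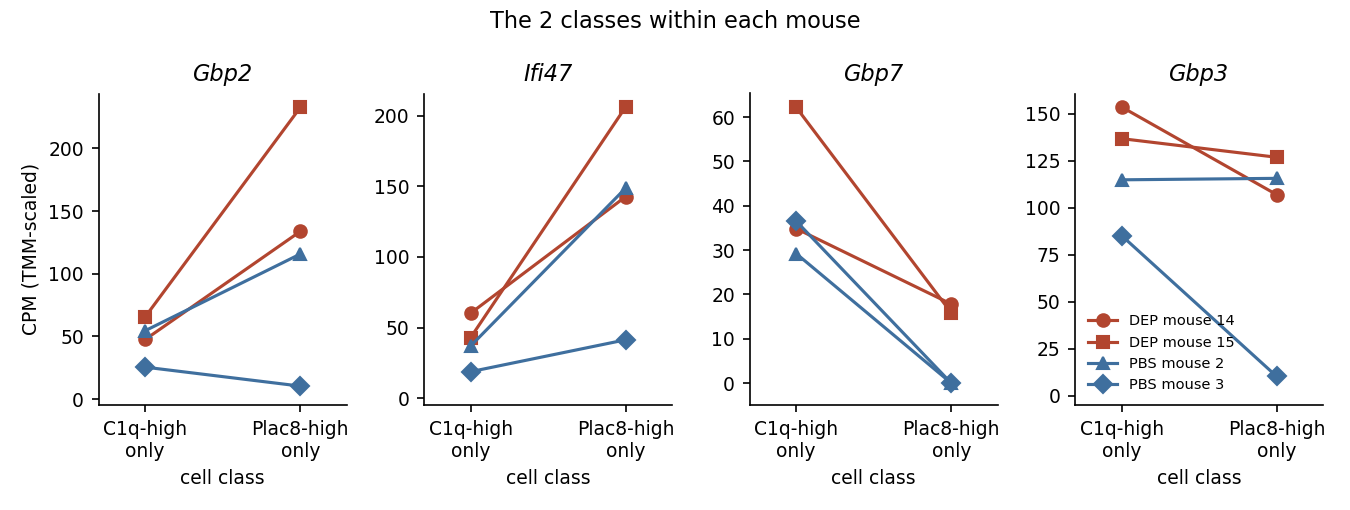
CPM of Gbp2, Ifi47, Gbp7 and Gbp3 in cells that are C1q-high only (left) and Plac8-high only (right), with a line for each mouse (DEP red, PBS blue; linear axes that differ between panels). Ifi47 rises from left to right in 4 of 4 mice and Gbp7 falls in 4 of 4, while Gbp2 falls in PBS mouse 3. The right-hand points of Gbp7 rest on 2, 3, 0 and 0 UMIs in mice 14, 15, 2 and 3.

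Of 17 further GBP and IRG genes listed, 15 were in the table and 5 were tested, of which 1 was higher and 2 were lower in Plac8-high cells (8.64% and 11.7% of all genes tested). Gbp2b, which encodes mouse GBP1, stood at 8.92, 5.29, 16.5 and 0 CPM in cells that were Plac8-high only. In cells that were C1q-high only it stood at 133, 95.0, 87.7 and 78.6 CPM (log2 fold change -3.87 ± 0.52, adjusted p = 1.68e-09 by edgeR). Gbp8 had 0 UMIs in the Plac8-high only cells of all 4 mice and 33, 37, 18 and 33 UMIs in the C1q-high only cells. With the former of all mice together set to a floor of 3 counts, this is 5.24-fold higher in the latter. Among all Plac8-high cells, including those also C1q-high, Gbp8 had 4 and 7 UMIs upon DEP and 1 and 2 upon PBS. The large inducible GTPase gene Gvin1 was the one that was higher in Plac8-high cells (log2 fold change 1.22 ± 0.38, adjusted p = 0.0122), and Gbp4 was not called (-0.62 ± 0.62). Between the mouse groups, 0 of these 5 genes were called in any of the cell sets. In all Plac8-high cells Gbp4 (log2 fold change 2.31 ± 0.88) and Gbp2b (-1.61 ± 0.84) had opposite signs.

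Whether the DEP effect differed between the classes was tested as an interaction of treatment and class that kept the mouse as a block. Of the genes tested 0.324% (18 of 5557) were called, 0.306% with the larger effect in Plac8-high cells and 0.018% with the smaller, and 0 of the 8 members were. The difference of the effects was 1.26 ± 0.62 for Gbp2 on the log2 scale (unadjusted p = 0.0427, adjusted p = 0.818 by edgeR). For Ifi47 it was 0.18 ± 0.62, and for Gbp3 0.65 ± 0.61, smaller than or close to their errors. The test used cells of 1 class only. It left out the 55 cells of both classes, which enter the larger Plac8-high changes given above. In cells of 1 class only, the DEP effects on the members were not shown to differ between the classes. Without the mouse as a replicate block 0 genes and 0 members were called.

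The signalling genes upstream of the members were examined next. Ifng, the interferon-γ gene, had 0 UMIs in the retained cells of all 4 mice. Its receptor genes were well detected, with Ifngr1 at 354 and 294 CPM upon DEP and 278 and 369 CPM upon PBS and Ifngr2 at 139 and 98.6 against 105 and 106 CPM. Neither of these receptor genes separated the groups. Ifnar2, of the type I interferon receptor, stood at 234 and 197 CPM upon DEP and at 169 and 176 CPM upon PBS, without overlap (log2 fold change 0.31 ± 0.16, adjusted p = 0.816). Jak2 was counted 10 and 12 times upon DEP and 1 and 9 times upon PBS, and the feedback inhibitor Socs1 5 and 3 against 1 and 5 times, too few to test.

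Among the factors, Irf1 stood over all retained cells at 72.3 and 133 CPM upon DEP against 95.2 and 94.7 CPM upon PBS (log2 fold change 0.14 ± 0.25), and Irf8, a factor of the monocyte lineage, at 419 and 341 CPM against 446 and 384 CPM (-0.13 ± 0.16), both overlapping between the groups. The type I interferon factors Irf7, at 90.1 and 68.1 CPM against 40.4 and 26.3 CPM, and Stat2, at 30.03 and 22.4 CPM against 7.21 and 7.89 CPM, had log2 fold changes of 1.28 ± 0.26 and 1.74 ± 0.39. Both were without overlap and had adjusted p-values of 0.373 and 0.515.

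Of the 22 interferon signalling genes listed, 16 were tested over all retained cells and 0 were called in either direction. Of these 16, 13 had positive fitted changes (48.4% of the genes tested) and 3 had an unadjusted p under 0.05 (Irf7 and Stat2 among them), with a median log2 fold change of 0.15. In Plac8-high cells 15 of 16 were positive with a median of 0.46. In C1q-high cells 13 of 16 were positive with a median of 0.13. Between the classes, 3 of the 16 were higher in Plac8-high cells (Irf7 and Usp18 among them) and 4 were lower (Irf8, Ciita, Socs3 and Ifnar2), against 8.64% and 11.7% of all genes tested.

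**Figure D5:**
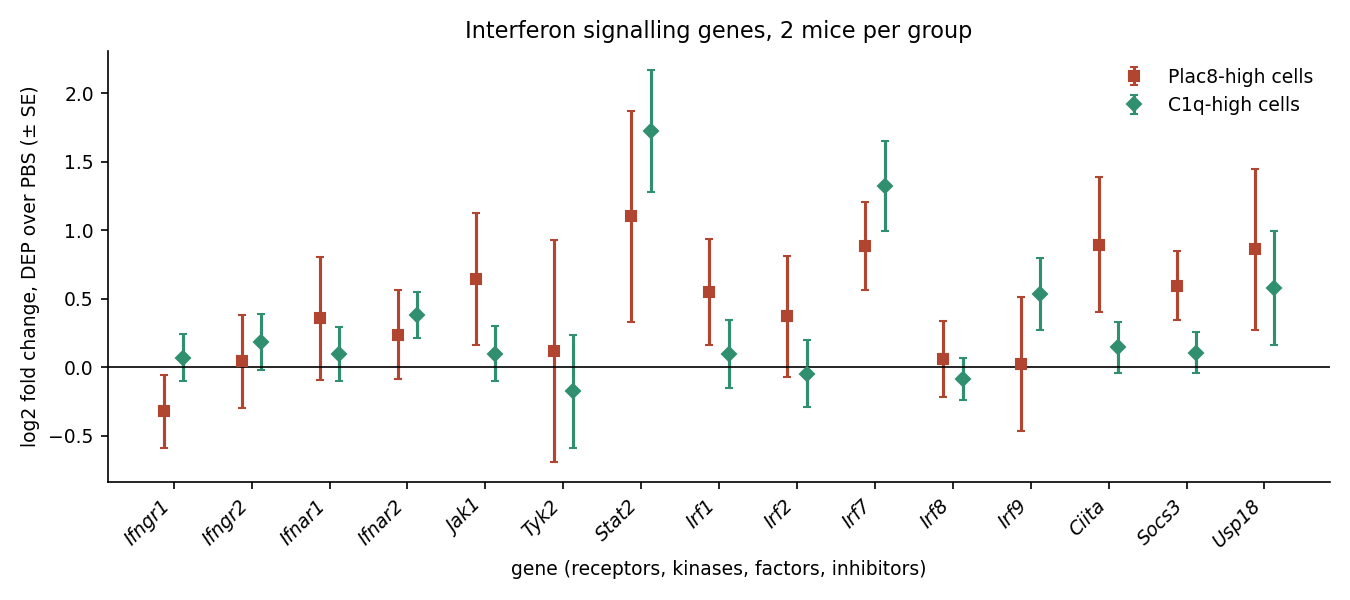
Log2 fold change of DEP over PBS with its standard error for 15 of the 16 interferon signalling genes tested, ordered as receptors, kinases, factors and inhibitors, in Plac8-high cells (red) and C1q-high cells (green). The 4 receptor genes lie between -0.32 and 0.38, and Stat2 and Irf7 lie at or above 0.89 in both classes.

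Of 18 genes whose products work with GBPs and IRGs, in inflammasomes or in ubiquitin-like conjugation of autophagy proteins, 17 were tested and 0 were called between the mouse groups in any cell set. Over all retained cells 8 of 17 had positive fitted changes, with a median log2 fold change of -0.05. The inflammasome genes Casp1, at 61.2 and 66.5 CPM upon DEP and 57.7 and 54.4 CPM upon PBS, and Casp4, at 65.6 and 101 against 82.2 and 80.7 CPM, had small fitted log2 fold changes (0.20 ± 0.21 and 0.06 ± 0.22). Gsdmd stood at 61.2 and 66.5 against 56.2 and 57.0 CPM (0.18 ± 0.21), and Aim2 at 26.7 and 19.2 against 15.9 and 36.0 CPM (-0.30 ± 0.37). In Plac8-high cells the sign of Aim2 was the opposite, at 52.5 and 20.3 CPM upon DEP and 0 and 14.3 CPM upon PBS (2.06 ± 1.01), and Gsdmd stood at 116 and 97.2 against 60.3 and 64.3 CPM (0.75 ± 0.42), neither called. Il18, a cytokine that caspase-1 matures, was the only one of the 17 with an unadjusted p under 0.05 over all retained cells, at 26.7 and 29.6 against 21.6 and 14.03 CPM (0.73 ± 0.33, adjusted p = 0.743). Nlrp3 stood at 60.1 and 110 CPM upon DEP and 149 and 101 CPM upon PBS (-0.49 ± 0.27, adjusted p = 0.832). In C1q-high cells 2 of the 17 had an unadjusted p under 0.05, both lower upon DEP. They were Nlrp3 (-0.55 ± 0.25, adjusted p = 0.830 by edgeR) and Il1b (-0.35 ± 0.16, adjusted p = 0.827), and both overlapped between the groups. Of these 17, Casp1 and Atg3 were higher and Sqstm1 was lower in Plac8-high than in C1q-high cells within mice, shares near or below those of all genes tested (8.64% and 11.7%).

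Markers of other cells differed between the groups in places. In Plac8-high cells the summed T cell markers stood at 10.5 and 12.4 CPM upon DEP and at 0 and 0 upon PBS. Of the 10 markers 4 were detected there. In these cells 1 UMI equals 5.27 and 4.12 CPM in DEP mice 14 and 15, and 8.35 and 7.22 CPM in PBS mice 2 and 3. The T cell sums thus rest on few UMIs, near the floor of counting. Over all retained cells they stood at 7.88 and 12.9 against 5.67 and 1.76, with 10 of 10 detected. Of the 2 neutrophil markers present in the table, Ngp was at 0 in Plac8-high cells. The other, Mmp8, stood there at 15.8 and 16.5 CPM upon DEP and 58.5 and 57.8 CPM upon PBS, again on few UMIs. The summed B or plasma cell markers stood at 149 and 166 CPM upon DEP and 140 and 113 upon PBS over all retained cells, with 8 of 10 detected and Pax5 at 0. The immunoglobulin transcript Igkc was found in 62.8% and 73.9% of the retained cells upon DEP (without thinning) and in 29.5% and 44.9% upon PBS, and Igha in 47.8% and 57.3% against 11.1% and 34.1%. In Plac8-high cells Igkc stood at 258 and 461 CPM by library size upon DEP and at 142 and 86.7 CPM upon PBS. Over all retained cells Igkc stood at 392 and 506 CPM upon DEP and at 551 and 190 CPM upon PBS, so that the groups overlapped. Igha stood there at 171 and 244 against 120 and 104 CPM, without overlap. The part of these transcripts and markers in the level of the members was not tested.

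The genes whose thinned counts followed the summed members most closely from cell to cell, among 2049 genes in 898 cells, were Ifi204, Plac8, Isg15, Hnrnph2, Psmb8, Ifi205, Ms4a4c, Fgl2, Gm10053 and Xbp1. Pearson r was centred within mice and ranged from 0.154 for Ifi204 to 0.113 for Xbp1. In counts this sparse such values are a description only, and Plac8 was also the gene that set one of the classes.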

How the data were processed

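Single-cell RNA-seq of sorted colon macrophages was available for 4 mice. Per the labels and methods, the authors aligned 10x 3′ v2 reads with Cell Ranger and STAR 2.6.1a to mm10, removed cells with low UMI or gene numbers or extreme mitochondrial content, found no doublets by simulation and deposited raw UMI counts per gene and cell. From these counts, without doublet calls of its own, the re-analysis summed UMIs per mouse and cell class, as the mouse is the replicate. Symbols were matched for 12576 of 12596 identifiers from GENCODE M21 (GRCm38). The groups were tested with edgeR 4.0.16 (R 4.3.3, TMM, quasi-likelihood test, Benjamini-Hochberg adjustment over all genes tested, threshold 0.05) on genes above 1 CPM in 2 or more libraries that had a UMI in 5% or more of the cells. DESeq2 1.42.0 was an alternative. The SE is the log2 fold change divided by the square root of F. For shares, an exact permutation test over mice (two-sided) was used (Python 3.11.15, SciPy 1.17.1), with exact 95% binomial intervals covering counting error only. Promoter sequences came from RefSeq (GRCm38.p6).

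The 10 members, the gene lists, the 2 classes and the tests were chosen with earlier results of these data known. All members are named, the 3 lists are counted, a fixed choice of their genes is given with values, and other genes of short counts were named after their values were seen. Of the list genes, Irgm2 (5, 7, 4 and 2 UMIs in mice 14, 15, 2 and 3), Tgtp1 (11, 10, 7 and 3) and Gbp6 (5, 5, 3 and 2) were below the filter, and Gm12250 was not analysed here. The values of some listed genes are not reported here. Tests were tried on simulated data. Each mouse was left out in turn, and normalizations, tests, filters, thresholds of the classes and thinning were varied.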

Additional observations from a re-analysis of the deposited data

Results flagged for a closer look

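The 17 retained cells that were neither Plac8-high nor C1q-high entered no comparison of their own. In them the summed members stood at 659 CPM by library size in DEP mouse 14 (2 cells, 2 UMIs), 1464 in DEP mouse 15 (7 cells, 29 UMIs, of which 23 in 1 cell), 0 in PBS mouse 2 (4 cells, 0 UMIs) and 230.4 in PBS mouse 3 (4 cells, 3 UMIs). They are given because a signal appeared outside the compared classes, above that of the control mice. The difference was not tested, and without the richest cell 0 and 6 UMIs remain upon DEP.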

How the results depend on the processing

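No paired analysis was possible because the DEP and PBS mice share no replicate number. In the comparisons within mice, dropping the mouse as a replicate block gave 1093 genes and the same 3 members between the classes, and 0 genes for the difference of the DEP effects. With few molecules per member in 4 mice, small changes could not be detected, and calls moved with single settings while most directions did not. Apart from the fits that left out a mouse, members tested in the main fit kept the direction of their change upon DEP. This held in 74 of 74 values over all retained cells, 84 of 84 in Plac8-high cells and 81 of 81 in C1q-high cells. These fits reuse the same 4 mice. With equal shares of the classes in every mouse, 8 of the 9 members then tested over all retained cells were positive. Their median log2 fold change was 0.62.

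Over all retained cells the likelihood ratio test called 7 genes and 1 member (Ifi47), a fit without the gene filter 47 genes and 3 members, filterByExpr 2 genes, and thinned cells or equal shares of the classes in every mouse 0 genes each. In Plac8-high cells 1 gene was called with median-ratio size factors or filterByExpr, 2 genes with library size only, all deposited cells or Plac8 at 0.05% of UMIs, 10 genes and 1 member (Gbp2) with the likelihood ratio test, 17 genes and 1 member (Gbp2) without the gene filter, and 25 genes with exclusive classes. With all deposited cells the log2 fold changes upon DEP in Plac8-high cells were 0.88 ± 0.48 for Gbp2, 1.10 ± 0.74 for Gbp7, 1.57 ± 0.62 for Tgtp2 and 0.42 ± 0.35 for Gbp3. The Plac8-high cells of PBS mouse 2 then held 74 member UMIs, against 51 in the main setting. Among the B or plasma cell-like cells left out of that mouse, 1 cell held 23 member UMIs. The 13 UMIs of Gbp2 in those cells also lay in 1 cell. In C1q-high cells 2 genes were called with the likelihood ratio test, 29 genes and 1 member (Ifi47) without the gene filter, and 1 gene with all deposited cells. Between the classes DESeq2 called 638 genes and 1 member, thinned cells 427 genes and 0 members (only 1 member could be tested), and the PBS mice alone 555 genes and 0 members. The last was chosen after seeing the data, as were the values without the cell with the most member UMIs of each mouse. The cause of these differences was not tested.

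Between the classes Igtp turned to -0.11 with DESeq2, -0.050 with median-ratio size factors, -0.18 without the gene filter and -0.19 within the PBS mice on the log2 scale, and Tgtp2 turned to -0.79 within the PBS mice.

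With each mouse left out in turn, 0 to 51 genes and 0 to 3 members were called over all retained cells, where 3 members were called without PBS mouse 2, and 39 and 51 genes without PBS mice 2 and 3. In Plac8-high cells 5 to 36 genes and 0 to 3 members were called, and in C1q-high cells 0 to 11 genes and 0 members. Between the classes 795 to 1059 genes and 1 to 4 members were called, with 1 member (Ifi47) without DEP mouse 15. For the difference of the DEP effects it was 2 to 16 genes. The log2 fold changes upon DEP ranged over all retained cells from 0.68 to 1.87 for Gbp2, 0.55 to 2.02 for Tgtp2 and 0.81 to 1.86 for Ifi47, highest without PBS mouse 2 and lowest without PBS mouse 3. In Plac8-high cells the same 2 mice set the ranges of 1.11 to 2.82 for Gbp2, 1.39 to 3.56 for Tgtp2 and 1.05 to 2.05 for Ifi47. Other values in these cells ranged from -0.20 to 5.56 for Gbp9, -0.15 to 1.34 for Irgm1 and -0.26 to 1.62 for Igtp, and in C1q-high cells from -0.29 to 0.84 for Irgm1. Between the classes they ranged from -0.20 to 1.61 for Irgm1, -0.23 to 0.58 for Tgtp2 and -0.34 to 0.12 for Igtp. The differences of the DEP effects ranged from -0.28 to 2.74 for Gbp3, -0.59 to 5.57 for Gbp9, -7.31 to 1.58 for Irgm1, -0.41 to 0.72 for Ifi47 and -0.33 to 0.74 for Igtp. Values beyond 5 in size come from fits in which 1 side had 0 UMIs and are no measure of size.
The difference in the share of cells with a member ranged from 3.97 to 17.0 points over all retained cells, 17.1 to 22.7 in Plac8-high cells and 0.748 to 15.1 in C1q-high cells. The log2 ratio of the summed members ranged from 0.56 to 1.21, 0.89 to 2.08 and 0.52 to 1.05.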

Other observations

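The 30 B or plasma cell-like cells left out of the comparisons carried 56 member UMIs. The summed members stood at 103 and 183 CPM by library size in the 5 and 13 such cells of DEP mice 14 and 15, and at 1750 and 231 in the 6 and 6 cells of PBS mice 2 and 3. The highest value thus came from a PBS mouse, and rested on 24 UMIs, of which 23 were in 1 cell.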
